A study of Bos taurus with 92 samples.

Results

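The transcripts of individual cattle blastocysts had been profiled, and the 14 blastocysts labelled as coming from artificial insemination (AI) are compared here with each other. They were chosen by that label alone, out of 46 samples in the series. The others were 15 blastocysts from in vitro fertilisation (IVF), 15 from nuclear transfer (NT, cloning by moving a donor cell's nucleus into an egg) and 2 samples of the donor cells. The AI embryos carry the names 1, 3, 5, 6, 7, 8, 13, 14, 15, 16, 17, H1, H3 and H5. What the letter H stands for, and the animals, age, sex and stage of the embryos, are not given in the sources used here. Each sample was hybridised on 2 arrays of cDNA probes against a common reference RNA, once labelled with Cy5 and once with Cy3, so that 28 of the 92 arrays belonged to AI embryos. The values are given as log2 ratios of embryo over reference. The labels name the dye of each channel but not the numerator of the ratio, and the direction was taken from cell type markers, so it is likely rather than stated. With the sign turned, each value would change sign and the highest embryo of a gene would be its lowest, while embryo SDs, F tests and correlations would keep their values.

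A blastocyst consists of an outer trophectoderm, which later forms the placenta, and an inner cell mass, which gives rise to the embryo proper and the primitive endoderm. Embryos of a cohort differ in genotype, sex and the exact hour of development, and the amounts of metabolic, stress-response and lineage transcripts can shift with each of these. A pair of dye-swapped arrays measures the same amplified RNA again, so agreement between the arrays separates the spread of embryos from the error of labelling and hybridisation. It does not separate the embryo from its RNA extraction and its 3 rounds of linear amplification, which both arrays share: those cannot be told apart here.

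The AI arrays differed in quality within a limited range. Duplicate spots correlated with r of 0.720 to 0.862 within an array, and the Cy5 and Cy3 arrays of an embryo with r of 0.622 to 0.790 across genes. Missing values took 2.43% to 10.3% of an array. In the direction used, of 32 trophectoderm genes 22 were higher in AI embryos than in donor cells and 0 lower (20.2% of all 4452 genes were higher, 16.2% lower), among them OCLN, a tight-junction protein, by 6.08 ± 0.22 (SE) on the log2 scale. Of 11 fibroblast and matrix genes, 7 were lower in embryos and 1, THY1, was higher (limma, adjusted p under 0.05). Since such markers set the direction, these counts are no independent check of the label; with the sign turned they would be reversed.

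Of 4385 named genes with both arrays in at least 10 AI embryos, 1960 (44.7%) varied between embryos beyond the dye-swap error (F test on limma-moderated error variances, Benjamini-Hochberg adjusted p under 0.05), and 2292 had an unadjusted p under 0.05. At probe level 3094 of 7981 probes (38.8%) were variable, 793 of them without a single gene symbol. The spread is given as the embryo SD, the standard deviation between embryos after the dye-swap error is taken out. Its median was 0.31 log2 units over all genes tested and 0.45 over the variable genes, against a median error SD of 0.22 for the mean of an embryo's arrays. In a typical variable gene the highest embryo exceeded the lowest by 3.29-fold (median). The embryo SD reached 0.5 in 791 variable genes and 1 in 76. It was estimated at 0 in 637 of the genes tested. The median error SD was 0.19 in the variable genes and 0.32 in the rest. On the arrays as deposited, without centring, the median error SD was 0.50 and 293 genes passed, 250 of them among the 1960 and all 30 of the genes described next among them. Markers of blood cells were variable in 0 of 9 genes and those of the endometrium in 2 of 6, SPP1 and MSX1. The blood cell genes had a median error SD of 0.54 against 0.22 over all genes.

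The 30 genes of largest embryo SD ran from 1.92 to 1.16 log2 units. In each of them at least 1 embryo lay 1 log2 unit or more above the mean and at least 1 as far below it, and the range between embryos was 11.1-fold to 98.4-fold. The median embryo lay above the reference in 14 of them and below it in 16. The leading gene was CXCR6, a chemokine receptor, with an embryo SD of 1.92. It was also among the least precisely measured, with both arrays in only 10 embryos and an error SD of 0.91. The other genes with an embryo SD above 1.4 were KCTD18, a BTB-domain protein, PLCB4, a phospholipase C that acts downstream of G protein-coupled receptors, GIPC2, a PDZ-domain protein, and MSMO1. In 23 of the 30 genes all 14 embryos had both arrays, and in 7 the error SD exceeded 0.5. The genes just below the 30 were PRMT9, MTPN and MAN2A1, with embryo SDs of 1.16, 1.15 and 1.15.

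**Figure D1:**
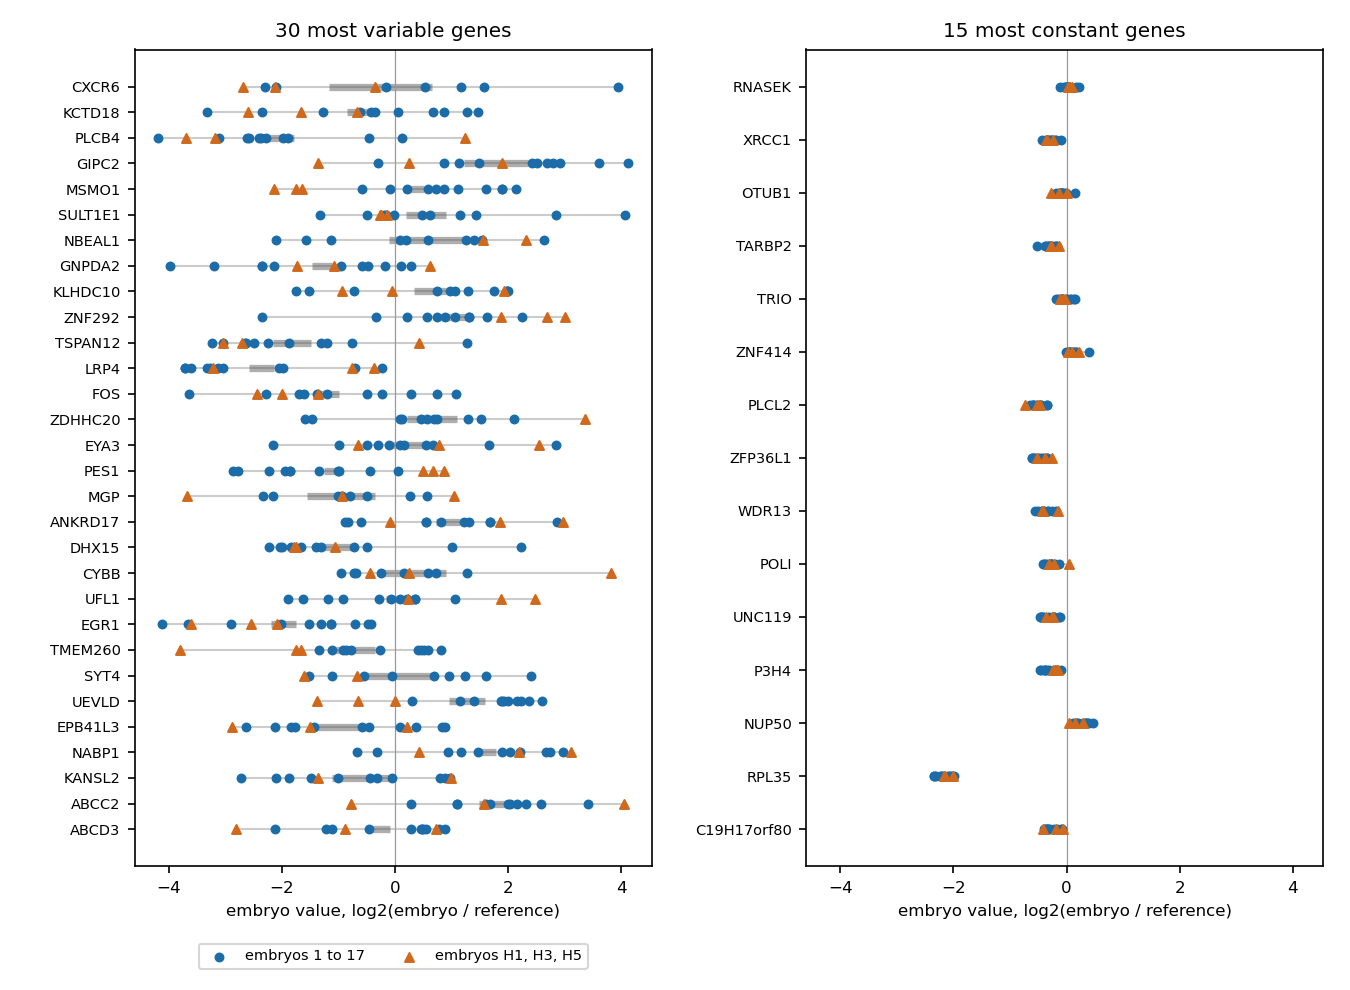
Value of each AI embryo (log2 of embryo over reference, horizontal axis) for the 30 most variable genes on the left and the 15 most constant on the right. Circles are embryos 1 to 17, triangles embryos H1, H3 and H5, thin lines the range, and grey bars the mean ± 1 error SD of an embryo value, drawn for embryos with both arrays. The variable genes range over 11.1-fold or more, while the 15 constant genes stay within 1.37-fold.

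MSMO1, a sterol oxidase of cholesterol synthesis, was among the best measured of the variable genes. Its lowest, median and highest embryo values were -2.13, 0.65 and 2.13, with an error SD of 0.17, an embryo SD of 1.41 and an adjusted p of 9.05e-08. The embryos H1, H3 and H5 lay at -1.75, -2.13 and -1.64, below each of the other 11, of which the lowest was embryo 5 at -0.59. Embryo 7 was the highest, followed by embryos 14 and 17, both at 1.89. The Cy5 and Cy3 values of the 14 embryos correlated with r = 0.978.

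Immediate early genes, which are switched on within minutes of a stimulus and code for short-lived transcription factors, gave 2 of the 30. FOS had a lowest, median and highest value of -3.65, -1.37 and 1.08, with an embryo SD of 1.30 and an adjusted p of 9.05e-08. EGR1 ran from -4.12 over a median of -1.78 to -0.42, with an embryo SD of 1.21 and an adjusted p of 1.26e-06. Embryo 8 was the highest for both genes. Embryo 7 was the lowest for FOS at -3.65 and the second lowest for EGR1 at -3.67, and embryo 1 was the lowest for EGR1.

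The other genes of the 30 are given in an order chosen after they were seen, which no count or test stands behind. SULT1E1, which sulphates and so inactivates oestrogens, ran from -1.33 over a median of -0.08 to 4.07, with an embryo SD of 1.39 (adjusted p 2.51e-05). Embryos 5 and 17 stood apart at 4.07 and 2.85, and the next was embryo 1 at 1.43. ABCC2, an exporter of conjugated compounds, ran from -0.78 in embryo H3 over a median of 1.84 to 4.04 in H1, with an embryo SD of 1.16. ABCD3, a peroxisomal fatty acid transporter, was lowest in embryo H1 at -2.81 and next in embryo 13 at -2.12, while its median was 0.37 and its highest value 0.88. LRP4, a receptor of the LDL receptor family that also takes part in Wnt signalling, split the embryos. Embryos 5, H3, 15 and H5 lay between -0.77 and -0.24, and the other 10 between -3.72 and -1.99.

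PES1, a factor of ribosome assembly, had a median of -1.18 and a highest value of 0.86, with an embryo SD of 1.24 (adjusted p 1.03e-07). The embryos H1, H3 and H5 lay at 0.86, 0.67 and 0.49, above the others, of which embryo 8 was the highest at 0.06. DHX15, an RNA helicase of spliceosome disassembly, lay at 2.23 in embryo 17 and 1.00 in embryo 15, with the other 12 between -2.22 and -0.50. ZNF292, a zinc-finger protein, was lowest in embryo 15 at -2.36, and the next was embryo 8 at -0.34. NABP1, which binds single-stranded DNA, was low in embryos 14 and 13 at -0.67 and -0.32, against a median of 1.96. ANKRD17, EYA3, a phosphatase and transcriptional co-activator, and KANSL2, a subunit of a histone acetyltransferase complex, had embryo SDs of 1.23, 1.29 and 1.16.

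PLCB4 had a median of -2.39 and was highest in H3 at 1.23, with embryos 13 and 16 next at 0.13 and -0.46 and embryo 14 lowest at -4.18. GIPC2 ran from -1.36 in H5 to 4.12 in embryo 7. GNPDA2, an enzyme that turns glucosamine phosphate into fructose phosphate, ran from -3.98 in embryo 14 to 0.61 in H1, with an error SD of 0.18. TSPAN12, a tetraspanin of the Norrin receptor complex, was high in embryo 17 at 1.27 and in H1 at 0.43 and had a median of -2.37. UFL1, the ligase that attaches the ubiquitin-like UFM1, was highest in H3 and H1 at 2.46 and 1.88. UEVLD was lowest in H5, H3 and H1 at -1.39, -0.66 and 0.0018, all below the other embryos, of which embryo 16 was the lowest at 0.31. TMEM260, a transmembrane mannosyltransferase, was lowest in H3 at -3.81, followed by H1 and H5 at -1.75 and -1.66. KLHDC10, a Kelch-domain protein, EPB41L3, a membrane skeleton protein, ZDHHC20, a palmitoyltransferase, and NBEAL1 had embryo SDs of 1.34, 1.18, 1.30 and 1.37.

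Calls that rested on a single embryo were few among the 30. After the loss of any 1 embryo 27 of them stayed past the threshold. CXCR6 is counted among these, but it had both arrays in only 10 embryos. It was not tested again without any of them. MGP, an inhibitor of calcification, was lost without H5 (adjusted p 0.063), where it lay at -3.68 against a median of -0.93. CYBB, the catalytic subunit of the phagocyte NADPH oxidase, was lost without H3 (adjusted p 0.335), where it lay at 3.82 while the next embryo with both arrays reached 1.28. SYT4, a synaptotagmin, was lost without embryo 16 (adjusted p 0.052). All 3 had both arrays in 11 embryos. Over all variable genes, 1333 of 1960 kept the call after the loss of any 1 embryo. Fits that left a gene fewer than 10 embryos did not enter these counts.

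**Figure D2:**
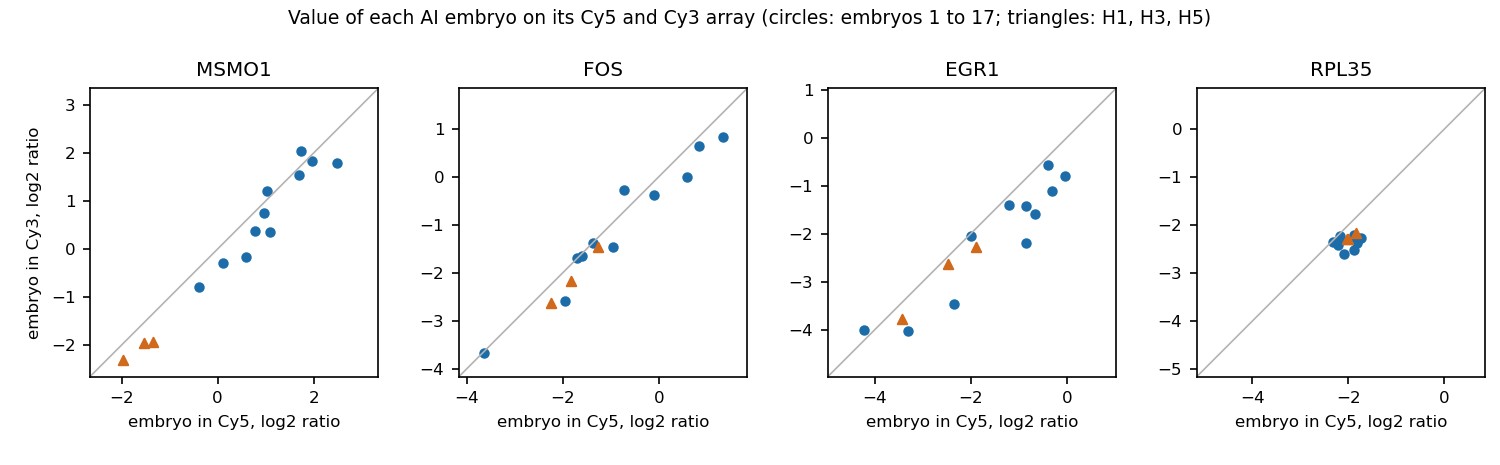
Value of each AI embryo on the array with the embryo in Cy5 (horizontal axis) against that with the embryo in Cy3 (vertical axis, both log2 of embryo over reference, 6 log2 units wide in each panel; the line marks equality). In MSMO1, FOS and EGR1 the embryos spread along the line, with r of 0.978, 0.976 and 0.942; in RPL35, a constant gene, they form a single cloud.

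Some genes had more than 1 probe, although each of the 30 had only 1. Gene values are means over probes, so agreement between probes entered the call and is a description here. Over 369 variable genes with several probes, the Cy5 value of one probe correlated with the Cy3 value of another with a median r of 0.39 over the AI embryos. In 152 of the 369 genes r exceeded 0.5. Over the 547 other genes with several probes the median r was 0.018, and in 5 of them r exceeded 0.5. FABP5, a fatty acid carrier, had 4 probes that correlated with r of 0.57 to 0.93. SIRT5, a mitochondrial desuccinylase, had a pair with r of 0.90, and HK1, a hexokinase, a pair with r of 0.75. In contrast, the probes of CLDN1, a tight-junction claudin, correlated with r of 0.042, so that its embryo SD of 0.93 came from probes that did not move together. Of the 3 probes of TXNIP, an inhibitor of thioredoxin, a pair correlated with r of 0.96 and the third with neither of them (r of 0.053 and -0.10).

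Among the 435 pairs of the 30 most variable genes, 2 (0.46%) were correlated over the embryos after adjustment (Pearson r, permutation test, two-sided, Benjamini-Hochberg), and 25 had an unadjusted p under 0.05. MSMO1 and TMEM260 correlated with r = 0.869 and rho = 0.868 (adjusted p 0.00435 and 0.0283, permutation tests over 14 embryos), from a permutation p of 1e-05 that is the smallest the 100000 permutations can give. Without the 2 embryos farthest from the median of MSMO1, r was 0.806. FOS and EGR1 correlated with r = 0.824 and rho = 0.895 (adjusted p 0.0457 and 0.0174, permutation tests), and with r = 0.756 without 2 embryos. Between the Cy5 value of one gene and the Cy3 value of the other, which share no array, r was 0.850 and 0.818 for the 2 pairs. Neither pair passed among the 11 embryos that remain without H1, H3 and H5: r was 0.744 for MSMO1 with TMEM260 (adjusted p 0.679, permutation test) and 0.854 for FOS with EGR1 (adjusted p 0.148, permutation test). In IVF and NT embryos r was 0.375 and -0.281 for MSMO1 with TMEM260, and -0.144 and 0.399 for FOS with EGR1. Whether these values differ from those in AI was not tested.

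**Figure D3:**
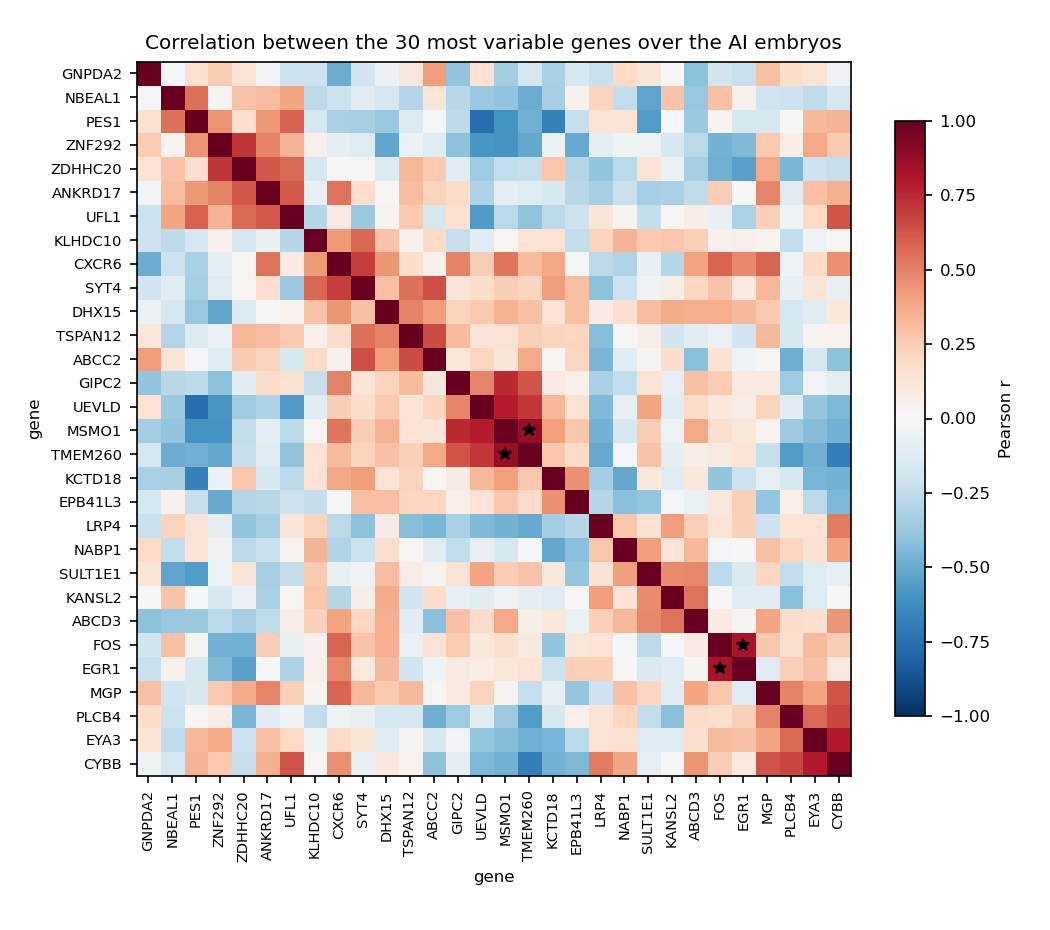
Pearson r over the AI embryos for each pair of the 30 most variable genes (rows and columns, ordered by average linkage; colour scale from -1 to 1). Stars mark the pairs past the threshold, MSMO1 with TMEM260 and FOS with EGR1; blocks along the diagonal are the groups described in the text.

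Grouping the 30 genes by their correlation gave 2 groups of 3 or more genes. GIPC2, MSMO1, TMEM260 and UEVLD formed the larger, with r between 0.49 and 0.87 and a median of 0.72, or 0.70 across dyes. In 3 of these genes, all but GIPC2, the embryos H1, H3 and H5 were the lowest. PLCB4, EYA3 and CYBB formed the other, with a median r of 0.67, or 0.65 across dyes, and were each high in H3. These groups were drawn from the same values, so their correlations describe them and test nothing. Over all pairs of the 1960 variable genes, the median r across dyes was -0.011 and the central 95% ran from -0.51 to 0.49. The strongest negative relation among the 30 was that of PES1 with UEVLD, with r = -0.753, rho = -0.763 and r = -0.637 without 2 embryos (adjusted p 0.162 and 0.334, permutation tests), which did not pass.

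The genes of the whole table most like GIPC2 were GCA, a calcium-binding protein of granules, with r = 0.816, HOMEZ with 0.778 and NFATC4 with 0.745, each over 14 embryos. Those most like PLCB4 were MISP3 and COG2, both with r = 0.888, and STK17A, a kinase linked to apoptosis, with 0.789. MISP3 and COG2 were lowest in embryo 14, at -0.32 and -0.0018, and highest in H3, at 1.92 and 1.91, as PLCB4 was. MSMO1, looked up after its values were seen, was most like NFATC4 (r = 0.992), then GADD45A, a growth-arrest gene (0.920), and SLC40A1, the iron exporter ferroportin (0.895).

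The probe of NFATC4 stood next to that of MSMO1 in the deposited spot order. The pair also correlated with r = 0.959 in the IVF and 0.966 in the NT embryos, and the embryo SD of NFATC4 was 0.88 against 1.41 for MSMO1. Among 1228 pairs of variable probes that were direct neighbours in that order, 13 (1.06%) correlated across dyes with r above 0.7, against 3 of 1217 (0.247%) at a distance of 2 probes and 4 of 1199 (0.334%) at a distance of 50. Of 59 neighbours of the 30 genes 2 exceeded 0.7, NFATC4 and, beside PES1, GRSF1 with r = 0.78. Among the genes most like GIPC2, a probe of GCA and that of HOMEZ were direct neighbours as well. The part of spot position in these pairs was not tested. TMEM260, GADD45A, SLC40A1 and FDPS were not neighbours of MSMO1.

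**Figure D4:**
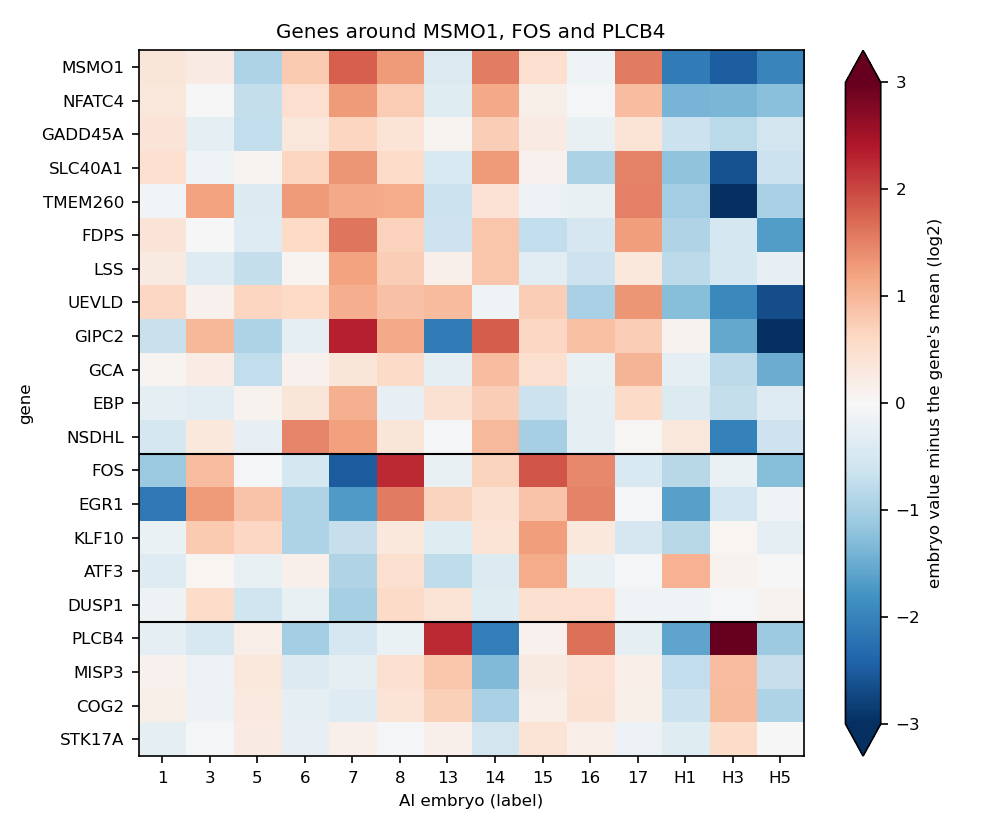
Embryo value minus the mean of the gene over the 14 AI embryos (log2, colour scale from -3 to 3; columns are embryos) for MSMO1 and genes that varied with it or belong to cholesterol synthesis (top), FOS with other immediate early genes (middle) and PLCB4 with the genes most like it (bottom). MSMO1, TMEM260 and UEVLD are lowest in H1, H3 and H5; FOS is lowest in embryo 7 and highest in 8; PLCB4 is highest in H3 and lowest in 14.

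Cholesterol and lipid synthesis had the largest median embryo SD of the 22 gene lists. Of its 10 members 7 were variable (all genes 44.7%), and the median embryo SD was 0.58 over the list against 0.31 over all genes. Embryo 7 had the highest value of 4 of the 7 variable members, and the lowest value fell in H1, H3 or H5 for 5. Shares of highest and lowest embryos over all variable genes were not counted. An embryo labelled H was the farthest from the median in 32.8% of all variable genes. FDPS, which makes farnesyl diphosphate, ran from -1.96 in H5 over a median of -0.47 to 1.32 in embryo 7. NSDHL, a sterol dehydrogenase, ran from -1.84 in H3 to 1.66 in embryo 6, LSS, the lanosterol synthase, from -1.83 in H1 to 0.16 in embryo 7, and EBP, a sterol isomerase, from 0.72 in H3 to 2.51 in embryo 7. Across dyes the median r between the variable members was 0.37. ACSL1, which activates fatty acids, and MYLIP, which marks the LDL receptor for degradation, did not share the pattern, with r against MSMO1 of -0.10 and 0.24. ACLY, which supplies acetyl-CoA, SREBF1 and IDI1, an isomerase of the isoprenoid pathway, did not pass the test, with embryo SDs of 0.18, 0 and 0.59. The error SD of IDI1 was 0.71.

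The mean deviation of the 7 variable members ran from -0.77 in H3 to 0.96 in embryo 7. Embryo 7 was also the highest in such means of glycolysis, antioxidant, iron, trophectoderm, ribosomal protein and oxidative phosphorylation genes. H3 was also the lowest for the glycolysis, antioxidant and iron lists. The opposite held elsewhere: embryo 7 was the lowest for histones and chromatin (-0.41) and for immediate early and YAP targets (-0.46). H3 was the highest for heat shock and folding (0.42) and for imprinted genes (0.37). The remaining lists averaged in this way had other embryos at both ends. FDPS followed MSMO1 with r = 0.859 among the 11 embryos without the H label and 0.847 over all 14. For NSDHL these values were 0.544 and 0.627. In IVF and NT embryos r with MSMO1 was 0.036 and 0.390 for FDPS, and -0.547 and 0.735 for NSDHL. The median r among the members was -0.093 in IVF and 0.28 in NT, against 0.38 in AI. Whether these correlations differ between the kinds of embryo was not tested.

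Immediate early genes and targets of YAP, a growth-control co-activator, were variable in 10 of 19 (all genes 44.7%). Beside FOS and EGR1 these were DUSP6, JUND, ATF3, FOSB, ZFP36, ANKRD1, SGK1 and JUNB, with embryo SDs of 0.62 to 0.28. DUSP6, a phosphatase induced by ERK signalling, ran from -0.83 in H5 over a median of 0.40 to 1.27 in embryo 17, and its 4 probes correlated with r of 0.35 to 0.69. Over the pairs of variable members the median r across dyes was 0.09. FOS correlated with r of 0.50 with ZFP36, 0.46 with ATF3, 0.40 with JUND, -0.059 with DUSP6, -0.15 with FOSB and -0.44 with JUNB. With DUSP1, a member that did not pass the test of variability, r was 0.74. Outside the list KLF10, a growth-factor-induced zinc-finger gene, was among the genes most like FOS, with r = 0.747.

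The amino acid response, through which cells adapt to a shortage of amino acids, together with serine synthesis was variable in 11 of 14 (all genes 44.7%). PSPH, the last enzyme of serine synthesis, ran from -3.81 in embryo 7 over a median of -2.73 to -0.70 in embryo 5, with an embryo SD of 0.98 (adjusted p 9.41e-06). MTHFD2, a mitochondrial enzyme of folate metabolism, showed the opposite extremes, with 0.038 in embryo 5, a median of 1.73 and 2.40 in embryo 7. SESN2, a sensor of leucine, was also highest in embryo 5, at 0.60 against a median of -0.66. ATF4, the transcription factor of this response, ran from -2.05 to -0.49 with an embryo SD of 0.50. Between the variable members the median r across dyes was -0.0037.

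Ribosomal protein genes mostly varied little in size and correlated positively. Of 47 members 23 were variable, close to the share of all genes, with a median embryo SD of 0.25. Yet the median r across dyes between the variable members was 0.32, over 253 pairs. Embryo 7 was the highest for 10 of the 23, a count without the share over all variable genes beside it. The mean deviation of the 23 genes ran from -0.28 in embryo 15 to 0.50 in embryo 7. RPL39 had the largest embryo SD of those called, 0.56, with embryos 6, 7, 14 and 13 between -0.71 and -0.54 and the other 10 between -2.04 and -1.41. The largest estimate in the list, 1.24, belonged to a member that did not pass the test. RPL10 ran from -0.45 in embryo 17 to 1.26 in embryo 13. Without H1, H3 and H5 the median r of the values was 0.54, against 0.48 over all AI embryos, 0.15 in IVF and 0.19 in NT, a difference that was not tested.

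Glycolysis and glucose uptake were variable in 9 of 15 (all genes 44.7%), led by PFKFB3, which sets the rate of glycolysis through fructose bisphosphate, with an embryo SD of 0.57. PFKFB3 was highest in embryo 15, at -0.14 against a median of -1.65, though its probes correlated with r of 0.26. LDHA, a lactate dehydrogenase, was highest in embryos 6, 14 and 1, at -1.01, -1.08 and -1.20, against a median of -2.18. GAPDH and PKM did not pass the test. Oxidative phosphorylation was variable in 20 of 48, near the share of all genes, with a median r across dyes of 0.09. Embryo 17 was the lowest for 7 of the 20, again without the share over all variable genes.

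**Figure D5:**
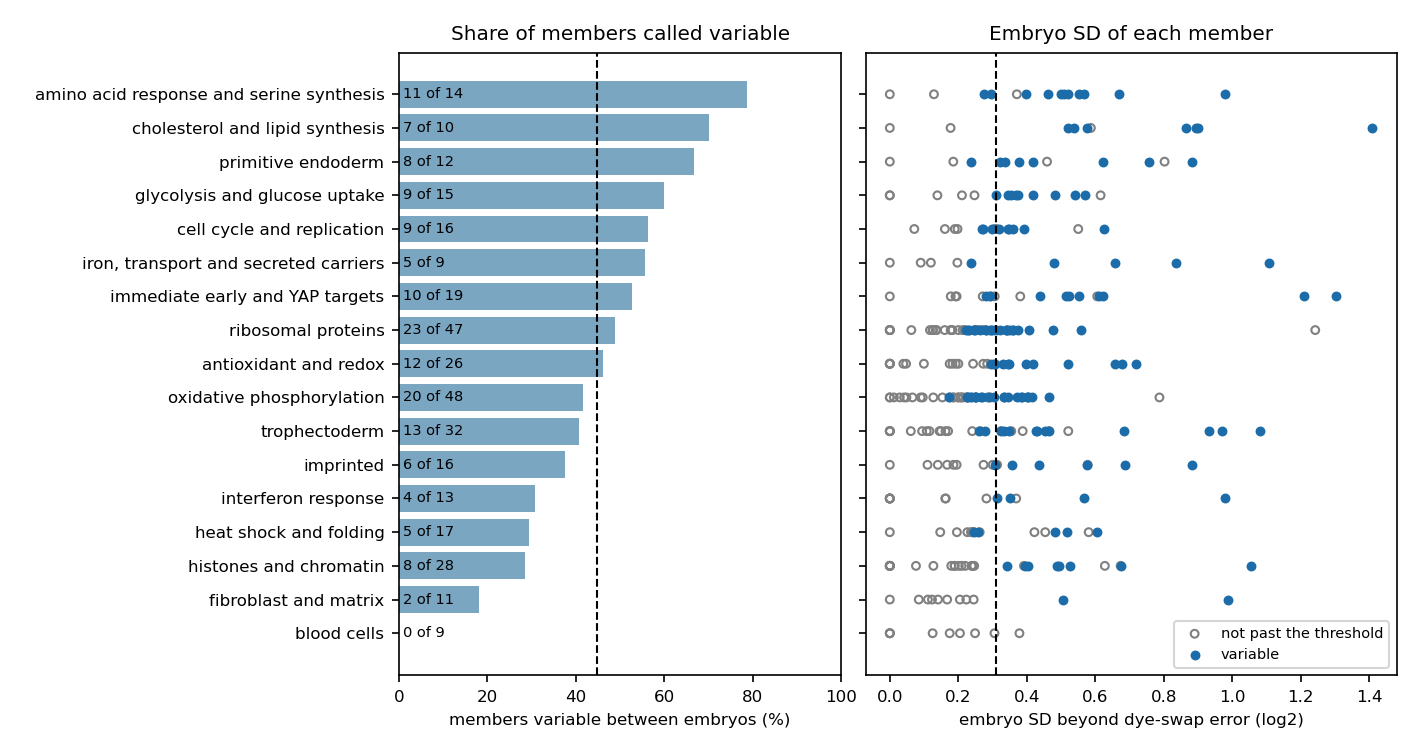
Share of members called variable (left, percent, with counts) and embryo SD of each member (right, log2 units) for gene lists with 9 or more members tested. Dashed lines give the values over all 4385 genes, 44.7% and 0.31; filled circles are members past the threshold.

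Lineage genes of the blastocyst were next examined. Trophectoderm genes were variable in 13 of 32 (all genes 44.7%), with a median embryo SD of 0.30. TKDP1 and SSLP1 led them with embryo SDs of 1.08 and 0.97. TKDP1, a trophoblast Kunitz-domain protein, lay at 4.14, 4.06 and 3.81 in embryos H5, 7 and 13 and at 0.45 in H3, with a median of 1.82. SSLP1, a secreted protein of the Ly-6 family, ran from 1.54 in H5 to 4.64 in embryo 7. The markers AQP3, an aquaporin, and OCLN did not pass the test, with ranges of 4.14 to 5.17 and 3.41 to 4.32. KRT8 and KRT18, the epithelial keratins, did not pass either, with embryo SDs of 0.24 and 0.39.

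Primitive endoderm genes were variable in 8 of 12 (all genes 44.7%). FGFR2, a receptor for fibroblast growth factors, ran from -3.98 in H5 over a median of -2.62 to -1.03 in embryo 7, with an embryo SD of 0.88. DAB2, an endocytic adaptor, ran from 1.51 in embryo 5 to 4.19 in H1, and SPARC, a matrix protein, was lowest in H1 at -3.67 against a median of -1.69. Between the variable members the median r across dyes was -0.07. Of the pluripotency and epiblast genes STAT3 and KLF4 were variable, 2 of 4, with embryo SDs of 0.57 and 0.49, and KLF4 was lowest in embryo 7 at 0.55 against a median of 1.90. In a whole blastocyst, fewer cells of a type and less RNA per cell cannot be told apart.

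The other lists gave the following counts, beside a share of 44.7% over all genes. The cell cycle was variable in 9 of 16, with CCNE1, the G1 cyclin E1, at 0.44 in embryo 5 against a median of 2.27. Iron, transport and secreted carriers were variable in 5 of 9, led by SLC40A1, which ran from -1.90 in H3 to 2.22 in embryo 17. Antioxidant and redox genes were variable in 12 of 26. TXNIP was lowest in H5, H3 and H1, at -3.07, -2.86 and -2.85, with the other embryos between -1.71 and -0.80. HMOX1, which degrades haem, ran from -2.59 in H3 to -0.51 in embryo 17. Apoptosis genes were variable in 3 of 6, CASP2, AIFM1 and MCL1.

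Imprinted genes were variable in 6 of 16, interferon-response genes in 4 of 13, heat shock and folding genes in 5 of 17, histones and chromatin genes in 8 of 28 and fibroblast and matrix genes in 2 of 11, CAV1 and IGFBP5. The share over all genes was 44.7%, and no difference from it was tested. PHLDA2, an imprinted regulator of placental growth, ran from -1.61 in embryo 6 to 2.43 in embryo 13. The Cy5 and Cy3 values of PHLDA2 in embryo 6 were -4.30 and 1.07, so its low end rests on the Cy5 array. GRB10, an imprinted adaptor of insulin signalling, ran from -1.91 in embryo 5 to 0.79 in embryo 14, and its probes correlated with r of 0.56. IFI30, a lysosomal thiol reductase, ran from -0.60 in embryo 16 to 2.60 in embryo 17. H2BC21, a histone H2B gene, was lowest in embryo 7 at -3.48, and the next was embryo 13 at -1.96. Of the oocyte and cumulus lists 1 of 2 and 1 of 3 genes were variable, ZP3 and TNFAIP6.

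The most constant genes were taken as those with the smallest SD of embryo values among the 3963 genes measured on both arrays of all 14 embryos. The 15 genes at that end had SDs of 0.084 to 0.124, with ranges between embryos of 1.26-fold to 1.37-fold. They were RNASEK, a ribonuclease associated with the proton pump, XRCC1, a scaffold of DNA single-strand break repair, OTUB1, a deubiquitinase, TARBP2, a partner of Dicer, TRIO, ZNF414, PLCL2, ZFP36L1, which promotes decay of mRNAs, WDR13, POLI, a DNA polymerase of lesion bypass, UNC119, P3H4, NUP50, a nuclear pore protein, RPL35, a protein of the large ribosomal subunit, and C19H17orf80. RNASEK, the first of them, ran from -0.12 over a median of 0.026 to 0.22, with an SD of 0.084 (95% interval 0.061 to 0.135). Its Cy5 and Cy3 values were 0.46 and -0.55 in embryo 1 and 0 and 0.34 in embryo 14, so single arrays spread more than their mean. Picking the smallest SD of such means favours genes whose Cy5 and Cy3 deviations cancel, and the SDs and intervals are low by that choice. For all 15 the embryo SD was estimated at 0. The genes just beyond the limit were PRR5 and RANBP3, both with an SD of 0.126. The choice depended on the averaging and centring of arrays. On a single dye 18 of the 30 SDs of these genes lay outside their interval, at 0.143 to 0.254. On the arrays as deposited 3 of the 15 stayed among the 100 most constant genes. None of the 15 was variable in IVF (0 of 15, all genes 40.2%) or NT embryos (0 of 15, all genes 39.3%).

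A value near 0 in each embryo can also come from a probe that responds to no change, so constant genes were sought among those the array did resolve, with at least 1 log2 unit between AI embryos and donor cells (limma, 26.7% of all genes). Of the 15 only RPL35 met this, at a median of -2.15 in the AI embryos with a difference from donor cells of -1.48 (adjusted p 4.41e-12). The 10 most constant genes that met it had SDs of 0.122 to 0.174. GSR, the glutathione reductase, lay between 1.52 and 2.02 in the embryos, 3.27 log2 units above donor cells, and RANBP3, a nuclear export cofactor, between 1.94 and 2.39, 2.42 above. The others lay below donor cells, with differences of AI minus donor of -7.05 for CTSK, a collagen-degrading protease, -4.70 for FHL1, a muscle LIM protein, -2.55 for TRAPPC9, a vesicle-tethering factor, -2.49 for SMOC1, -2.26 for PYGL, a glycogen phosphorylase, and -1.44 for RNASET2 and for FCGRT, an Fc receptor. Where a gene had several probes, its small SD is that of their mean. Single probes had SDs of 0.23 to 0.44 for RNASET2, 0.23 to 0.37 for FCGRT and 0.23 and 0.30 for FHL1. Between probes r ran from -0.33 to 0.33 for RNASET2 and from -0.22 to 0.15 for FCGRT. CTSK ran from -3.83 to -3.22 across the 14 embryos. For ratios this far below the reference a floor in the scanner signal was not tested, since no intensities were used here.

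Some embryos stood apart in many genes. Among the variable genes, the embryo farthest from the median of the gene was H3 in 335 genes (17.1%), embryo 14 in 233 (11.9%) and H1 in 199 (10.2%), and each other embryo in 3.62% to 8.01%. The first principal component of the 1915 variable genes with complete values, 16.5% of their variance, put H3 at 27.6, H1 at 11.4 and H5 at 7.53, with the other embryos between -10.9 and 2.61. The H embryos all lay above or all below the others in 86 of 4224 genes (2.04%) and in 4 of 26 among the most variable 30, MSMO1, TMEM260, UEVLD and PES1. The variable genes and the 30 were picked for spread over these same embryos, which favours genes with embryos standing apart. The counts among them describe these genes and test nothing. With the H label as a term of the fit, so that only spread within labels counts, 1832 genes were variable. Over the 11 embryos without that label the number was 1425.

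The distance of an embryo, its median absolute deviation from the AI mean over genes, correlated with its share of missing values (r = 0.699, adjusted p 0.0315; rho = 0.635, adjusted p 0.0503, permutation tests over 14 embryos, 6 relations) and gave r = 0.776 without 2 embryos. The part of missing values in the distances was not tested. The other 5 relations, of the first component or the distance with array offset, missing values and dye agreement, gave r between 0.159 and 0.510 and did not pass. For the distance with dye agreement, r was 0.510 and rho 0.657 (adjusted p 0.186 and 0.0503, permutation tests).

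Compared with the other kinds of embryo, the AI embryos were about as far from their mean. The median absolute deviation averaged 0.287 ± 0.030 (SD) in 14 AI, 0.288 ± 0.065 in 15 IVF and 0.273 ± 0.027 in 15 NT embryos (adjusted p 0.973 and 0.375, permutation tests, two-sided). By the same F test 1773 of 4414 genes (40.2%) varied between IVF and 1728 of 4397 (39.3%) between NT embryos. Of the genes variable in AI 66.8% were also variable in IVF and 65.3% in NT, against 19.3% and 18.6% of the genes not variable in AI, and 1013 genes were variable in all 3 kinds. Of the 30 most variable genes, 25 of 29 tested varied in IVF and 25 of 30 in NT. CXCR6, MGP, CYBB, SYT4 and NBEAL1 did not pass in NT, with adjusted p of 0.706, 0.0852, 0.0778, 0.509 and 0.322. Across genes, which are not independent replicates, the embryo SD in AI had a rank correlation of 0.474 with that in IVF and 0.490 with that in NT.

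Differences in spread between the kinds were tested gene by gene on absolute deviations. Between AI and IVF 0 of 4452 genes passed (limma, Benjamini-Hochberg), with 410 genes (9.21%) at an unadjusted p under 0.05. Between AI and NT 2 genes (0.0449%) were wider in AI and 0 narrower, with 329 at an unadjusted p under 0.05. PRADC1, a secreted protease-associated-domain protein, had an SD of 1.07 in AI and 0.25 in NT, and CAV1, the main protein of caveolae, 1.01 and 0.26. PRADC1 split the AI embryos, with 1, 5, 8, 15, 17 and H3 between 1.18 and 2.07 and the other 8 between -0.69 and 0.16. CAV1 ran from -5.34 in H3 over a median of -4.60 to -2.17 in embryo 17. With deviations taken from the median of a kind in place of its mean, neither gene passed (limma, adjusted p 0.568 for PRADC1 and 0.78 for CAV1), and CAV1 did not pass once arrays were scaled to a common spread (adjusted p 0.269). On the Cy5 arrays alone neither passed (limma, adjusted p 0.0594 for PRADC1 and 0.0729 for CAV1), and on the Cy3 arrays alone PRADC1 passed (0.00381) and CAV1 did not (0.0519).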

How the data were processed

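RNA of single embryos had been isolated with Trizol and amplified linearly, in 3 rounds for embryos and 2 for the reference, per the labels' protocols. The authors deposited a log2 ratio of Cy5 and Cy3 for each spot. Scanner software, background correction and normalisation are not given in the sources used here, and no intensities were used. The table held 16416 spots, the adjacent pairs of 8208 probes. A fill value of 16.61 (845 cells of AI arrays) and any value above 16 was set to missing. Arrays with the embryo in Cy3 were turned in sign, and each array was centred on its median, since medians of the deposited AI arrays ran from -1.52 to 1.23. Duplicate spots were averaged, then probes with the same single symbol (5598 probes with 1 symbol, 95 with several, 2515 with none), into 4452 genes. Of the named probes 5591 matched the reference gene table.

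Embryo and dye were fitted per gene in R 4.3.3, over embryos with both arrays, and the embryo mean square was tested against the dye-swap error variance moderated with limma 3.58.1 (F test, Benjamini-Hochberg, threshold 0.05). Genes with fewer than 10 such embryos (67 genes) were left out. Differences in spread and from donor cells were tested with limma's moderated test. Correlations had 100000 permutations. The F test and the spread test were tested on simulated data.

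Named genes were the 30 of largest embryo SD among those called, the 15 of smallest SD, the 10 of smallest SD with at least 1 log2 unit from donor cells, up to 3 called members per list, the 3 genes most like the leading gene of each group, and up to 5 genes per spread comparison and direction. Groups came from average linkage on 1 minus r at a height of 0.4. Further list members and the genes around MSMO1 and FOS were named after their values were seen. The members and lists were chosen with earlier results of these data known. Nothing in the labels says that embryos share a batch, and the number of arrays limits the precision.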

Additional observations from a re-analysis of the deposited data

Results flagged for a closer look

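The spread of PRADC1 and CAV1 differed between kinds of embryo by a test of the difference itself. The mean absolute deviation of PRADC1 was 0.83 log2 units larger in AI than in NT embryos (limma on absolute deviations, adjusted p 0.00273), with SDs of 1.07 and 0.25. That of CAV1 was 0.67 larger (adjusted p 0.0223), with SDs of 1.01 and 0.26. Over the alternatives the difference ran from 0.72 to 0.90 for PRADC1 and from 0.49 to 0.76 for CAV1, positive in each. The call of PRADC1 was lost with deviations from the median and on the Cy5 arrays alone (limma, adjusted p 0.568 and 0.0594). That of CAV1 was lost under both of these (0.78 and 0.0729), with arrays scaled to a common spread (0.269) and on the Cy3 arrays alone (0.0519). PRADC1 was variable in IVF embryos as well, with an embryo SD of 0.97.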

How the results depend on the processing

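The number of genes variable between AI embryos was 1960 and stayed within 1.5 times of that under 12 of 13 alternatives, from 1425 without the embryos labelled H to 2013 with 1 probe per gene. The exception was the arrays as deposited, with 293. Leaving out each embryo in turn gave 1766 (without H3) to 1962 genes (without embryo 17). The count of correlated pairs, 2, fell to 0 without the H embryos. For spread between AI and NT, 2 genes became 0 with deviations from the median, 1 with arrays scaled to a common median absolute deviation and 4 without the H embryos. On the Cy5 arrays only 2 genes passed, 0 of them among those 2, and on the Cy3 arrays only 2 passed, 1 of them among those 2 and 1 narrower in AI. For AI against IVF, 0 became 3 on the Cy5 arrays only and 1 on the Cy3 arrays only. The fits without H embryos hold fewer samples; for the other changes the cause was not tested. Embryo numbers shared by AI and IVF labels do not pair samples (7 numbers, correlation of deviations -0.059 to 0.087), and with a replicate block on them 0 genes passed. For single named genes 851 values were the same, 11 fell short of the threshold, 18 moved and 0 reversed. The 18 were SDs of constant genes on a single dye, 0.143 to 0.254. What depth allows could not be read from ratios without intensities, so a small embryo SD in a dim probe cannot be told from a lack of signal.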
